A study of Homo sapiens with 8 samples.

Results

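Hyaluronan genes were followed across U87 cells, a human glioblastoma line, after exposure to AsiDNA, belinostat or both. The set held 10 genes of the 58884 in the count table: the synthases HAS1, HAS2 and HAS3, the precursor enzyme UGDH, the degrading enzymes HYAL1, HYAL2, HYAL3, CEMIP and CEMIP2 (also named TMEM2), and the receptor CD44. They were chosen by name, with the loss of HAS2 in belinostat already known from these libraries, so HAS2 is described without a test in every comparison that uses a belinostat-treated group. Of the 10 genes, 9 passed the filter on low counts and were tested, and HYAL1 did not.

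AsiDNA is a short double-stranded DNA molecule that mimics a broken chromosome end and diverts DNA repair proteins. Belinostat inhibits histone deacetylases. The 4 groups of 2 RNA-seq libraries were DMSO (the solvent control), long-term AsiDNA, belinostat (1 µM for 24 h), and long-term AsiDNA with the same belinostat treatment, called the combination below. All groups were U87 cells grown in the same medium, in 2 cultures that the labels name MTU87 and LTAU87, and the sources used here give no dose or duration of AsiDNA. Each group rests on 1 cell line, and nothing states whether the 2 libraries of a group came from separate cultures, so p-values measure the spread between these libraries, which may be technical.

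Hyaluronan is a long sugar chain of alternating glucuronic acid and N-acetylglucosamine, and a main component of brain matrix. The synthases sit in the plasma membrane, draw UDP-glucuronic acid and UDP-N-acetylglucosamine from the cytosol and push the growing chain out of the cell. Outside, CEMIP and CEMIP2 start its breakdown into shorter pieces, HYAL2 at the cell surface and HYAL1 in lysosomes cut it further, and CD44 binds it and carries it into the cell. Glioma cells are known for abundant CD44 and for a hyaluronan-rich surrounding.

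The libraries held between 6057394 and 9699637 counts, and 3 counts equalled between 0.292 and 0.508 CPM (reads scaled to a common library total). Levels are in CPM after scaling by trimmed mean of M-values (TMM), fold changes are log2 values ± standard error from edgeR's quasi-likelihood fit, and calls were made at a threshold of 0.05 on the p adjusted over all 14741 tested genes. The DMSO libraries differed most between replicates: 11.1% of 8142 well-measured genes differed by over 1.5-fold between them, against 0.184% to 0.786% in the other groups. MALAT1 and NEAT1, nuclear RNAs, together took 0.911% and 2.81% of counts under DMSO, 0.753% and 0.688% with AsiDNA, 12.2% and 13.4% with belinostat and 3.12% and 2.06% with both agents. Of 9 glioma and glial markers, SOX2 was at 0 in all libraries and GFAP gave 8 counts in DMSO and 0 elsewhere. SLC1A3, a glutamate transporter gene, averaged 49.9 CPM under DMSO, 49.9 with AsiDNA, 59.1 with belinostat and 53.2 with both agents. Of the 9 glial markers 5 were tested, and 2 rose and 1 fell with belinostat, where 57.4% of all tested genes were called. VIM, which encodes vimentin, averaged 4504 CPM under DMSO, 5931 with AsiDNA, 1425 with belinostat and 3985 with both agents, and NES, which encodes nestin, averaged 5.35, 6.74, 32.4 and 55.7. The summed level of 9 markers of other brain cell types lay at 50.3 to 68.9 CPM under DMSO, 53.5 to 54.9 with AsiDNA, 136 to 153 with belinostat and 106 to 111 with both agents, with AIF1, CDH5 and MOG at 0 throughout. SNAP25 made up most of that sum (45.5 CPM under DMSO and 120.3 with belinostat), while MBP went from 7.19 to 2.37 CPM. The part of these shifts in the results was not tested. In bulk RNA, fewer cells of a kind and less RNA per cell cannot be told apart.

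HAS2, the synthase that makes long hyaluronan chains in many tissues, was nearly lost in belinostat, while HAS1 was not. HAS2 lies on chromosome 8 (GRCh38, 121612116 to 121641390, minus strand). Its levels were 234 and 178 CPM under DMSO, 211 and 209 with AsiDNA, 4.34 and 6.27 with belinostat and 13.5 and 19.6 with both agents. The untreated and belinostat-treated libraries lay far apart, and both combination libraries stood above both belinostat libraries. The log2 difference was -5.31 ± 0.23 for belinostat against DMSO and -3.65 ± 0.20 for the combination against AsiDNA, which placed HAS2 at rank 7 and rank 24 from the lowest of the 14741 genes. The belinostat levels rest on 37 counts in each library and the combination levels on 81 and 153. AsiDNA without belinostat left HAS2 at a log2 difference of 0.03 ± 0.16 from DMSO (adjusted p = 0.954).

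**Figure D1:**
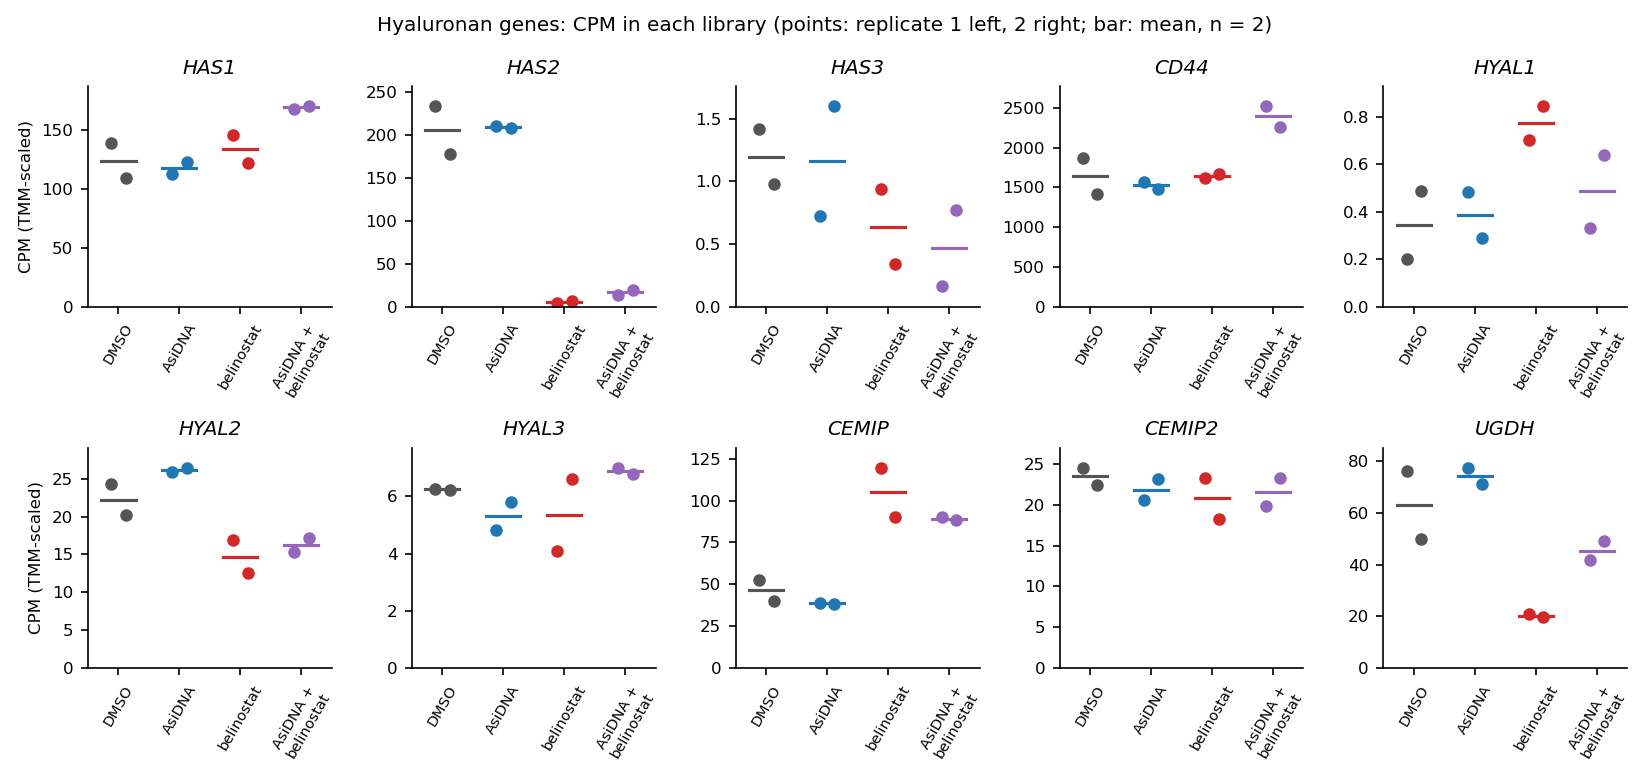
TMM-scaled CPM of each hyaluronan gene (linear axes from 0, a scale per gene) in the 2 libraries of each group (points) with the group mean (bar). HAS2 lies at 178 to 234 CPM without belinostat and at 4.34 to 19.6 with it, whereas CEMIP is higher and UGDH lower in the belinostat libraries than in DMSO.

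HAS1 encodes the second synthase, which is usually the less active enzyme. Its gene lies on chromosome 19 (GRCh38, 51713112 to 51723994, minus strand). It measured 138 and 109 CPM under DMSO, 113 and 123 with AsiDNA, 145 and 121 with belinostat and 168 and 169.9 with both agents. The belinostat and DMSO libraries overlapped, with a log2 fold change of 0.11 ± 0.14 (adjusted p = 0.526). It was called without DMSO replicate 1 (0.28, adjusted p = 0.0218). With both agents HAS1 rose over AsiDNA alone by 0.52 ± 0.14 (adjusted p = 0.00858), and no library of one group overlapped the other. That call was lost without AsiDNA replicate 1 (adjusted p = 0.114) or combination replicate 2 (0.0633).

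The stretch upstream of HAS1 is shown because this is the synthase that stayed. It is taken from RefSeq's promoter table (GRCh38.p14) and ends where the annotated exons begin, at chr19:51723995-51724241 on the minus strand. Capitals mark the GC box searched for, GGGCGG or its reverse complement CCGCCC, the binding motif of SP-family factors.
HAS1: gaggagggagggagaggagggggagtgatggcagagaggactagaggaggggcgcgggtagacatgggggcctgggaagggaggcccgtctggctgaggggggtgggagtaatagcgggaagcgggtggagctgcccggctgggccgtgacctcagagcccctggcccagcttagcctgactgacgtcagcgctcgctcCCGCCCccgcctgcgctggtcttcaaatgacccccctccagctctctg
The stretch of 247 bases held 1 GC box and 13 CG pairs. Among the 250 bases before the start of 35116 RefSeq promoters, 42.6% held a GC box and the median number of CG pairs was 11. Entries in that table were read for 9 of the 10 genes. HAS2 was not among them, because its chromosome was left out of the reading. A motif match is a description of letters only.

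HAS3 was scarcely detected. Its counts were 14 and 10 under DMSO, 6 and 11 with AsiDNA, 8 and 2 with belinostat and 1 and 6 with both agents. With 24 and 10 counts, the ratio of belinostat to DMSO was 0.582, with a 95% interval for counting error of 0.248 to 1.26. The fitted differences of -0.80 ± 0.71 with belinostat (adjusted p = 0.355) and -1.16 ± 0.80 for the combination against AsiDNA (0.263) were not called, and a change of that size was not detectable at this depth.

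The make-up of synthase transcripts shifted from a near even split to HAS1. On a scale of CPM per kilobase of annotated exon, HAS2 made up 47.4% and 46.5% of the 3 synthases in DMSO and 50.0% and 47.5% in AsiDNA. It made up 1.57% and 2.69% in belinostat and 4.13% and 5.80% in the combination, where HAS1 held 95.8% and 94.0%. The summed level per kilobase was 105 ± 18.7 (SD, n = 2) under DMSO, 103 ± 2.95 with AsiDNA, 60.8 ± 7.29 with belinostat and 79.4 ± 1.81 with both agents. No treated library of the belinostat or combination groups reached the lowest untreated one. These sums inherit the choice of HAS2 and carry no test.

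**Figure D2:**
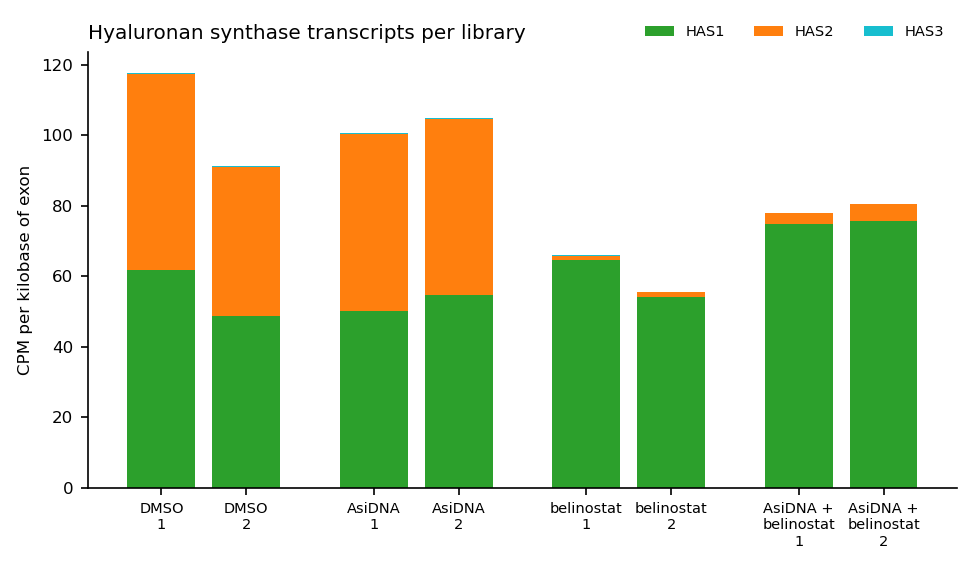
Stacked bars of HAS1, HAS2 and HAS3 in CPM per kilobase of exon for each of the 8 libraries, from 0. HAS2 fills 46.5% to 50.0% of the bar without belinostat and 1.57% to 5.80% with it.

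UGDH oxidises UDP-glucose to UDP-glucuronic acid, a sugar that hyaluronan, chondroitin and heparan chains all need. It fell with belinostat in cells without and with AsiDNA. The gene lies on chromosome 4 (GRCh38, 39498755 to 39528311, minus strand). Levels were 76.1 and 50.0 CPM under DMSO, 77.5 and 71.3 with AsiDNA, 20.8 and 19.8 with belinostat and 41.7 and 49.0 with both agents. Both treated groups lay below their own untreated group, and the combination lay above belinostat alone. The fall was -1.63 ± 0.19 with belinostat (adjusted p = 9.3e-06) and -0.71 ± 0.18 for the combination against AsiDNA (0.0057). The second call was lost without AsiDNA replicate 1 (adjusted p = 0.0573) or combination replicate 1 (0.0616). The difference between the 2 falls was not called (interaction 0.92 ± 0.26, adjusted p = 0.0933).

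The upstream stretch of UGDH, which after HAS2 had the steepest fall with belinostat, is printed in the same way. The RefSeq start lies inside the longer annotated gene, so only the 71 bases that touch no annotated exon are given, at chr4:39527619-39527689 on the minus strand, with the GC box in capitals.
UGDH: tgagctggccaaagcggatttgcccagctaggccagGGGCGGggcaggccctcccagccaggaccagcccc
It held 1 GC box and 2 CG pairs. UGDH-AS1, a gene on the opposite strand that shares 293 exon bases with UGDH (7.24%), gave 30 and 13 counts in DMSO and 41 and 31 in belinostat, a rise of 1.22 ± 0.40 (adjusted p = 0.0191) that was not called by DESeq2, in the fit of only the groups compared, or without DMSO replicate 2 or either belinostat library. Without a known strand setting of the counting, reads over the shared bases are uncertain for both genes. HAS2-AS1 shares 201 exon bases with HAS2 (4.80%). It gave 21 and 20 counts under DMSO, 13 and 11 with AsiDNA, 25 and 17 with belinostat and 22 and 31 with both agents, and was higher in the combination than in AsiDNA by 1.26 ± 0.39 (adjusted p = 0.018), opposite in sign to HAS2. That call was lost by DESeq2 and without any one AsiDNA or combination library.

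The enzymes that supply the UDP-sugars changed unevenly. Of 14 genes in this list, all tested, 2 rose and 6 fell with belinostat, a called share close to the 57.4% of all tested genes, and their median log2 fold change was -0.19 against 0.06 over all genes. In the combination against AsiDNA, 4 rose and 6 fell, beside 42.9% of all genes called. PGM1, which interconverts glucose phosphates ahead of UDP-glucose, fell by 2.18 ± 0.18 (adjusted p = 4.37e-07) and by 1.49 ± 0.17 (1.3e-05) on the log2 scale. GNPNAT1, the acetylating enzyme of the hexosamine pathway that leads to UDP-N-acetylglucosamine, fell by 2.14 ± 0.20 (adjusted p = 1.54e-06) and 1.40 ± 0.19 (5.84e-05). Its levels were 84.4 and 53.3 CPM under DMSO, 76.4 and 77.3 with AsiDNA, 14.7 and 16.8 with belinostat and 27.9 and 30.1 with both agents, so the treated libraries lay below the untreated ones in both settings. HK2, a hexokinase at the entry of glucose use, rose by 0.72 ± 0.14 (adjusted p = 0.000657) and 1.00 ± 0.14 (8.64e-05). UXS1, which consumes UDP-glucuronic acid to make UDP-xylose and so does not supply hyaluronan, rose by 0.70 ± 0.15 (adjusted p = 0.00161) and 0.97 ± 0.16 (0.000248). Without DMSO replicate 1, 5 of the 14 rose with belinostat, and without AsiDNA replicate 1, 3 fell in the combination.

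**Figure D3:**
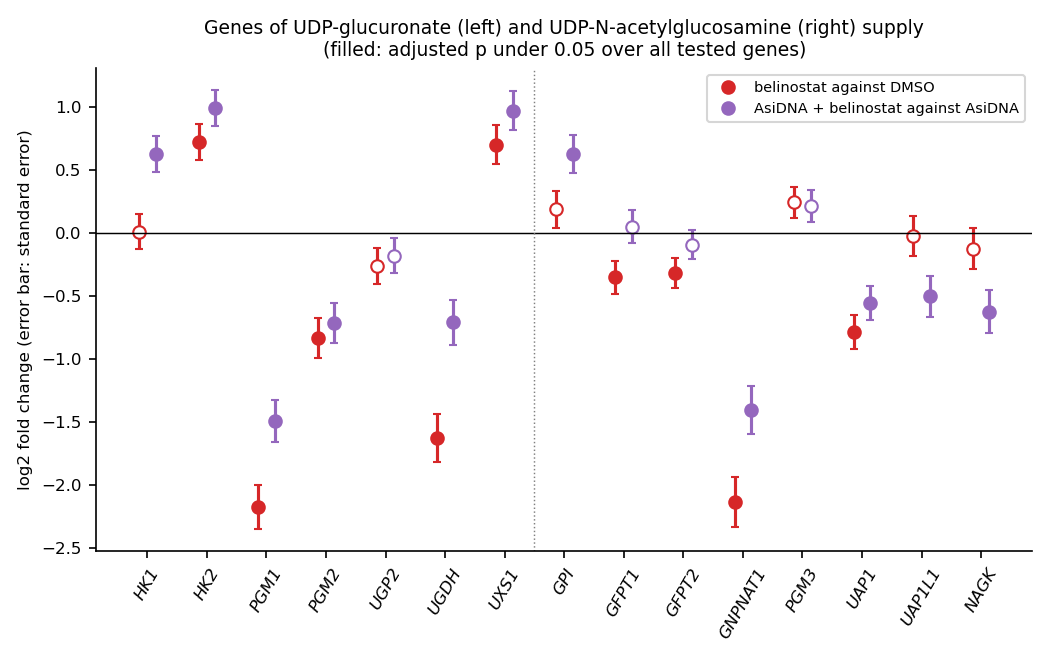
Log2 fold changes with standard errors of UGDH and the 14 genes of the UDP-sugar list, for belinostat against DMSO and for the combination against AsiDNA, with filled points where the adjusted p is under 0.05. PGM1 and GNPNAT1 lie lowest in both comparisons, and HK2 and UXS1 lie above 0 in both.

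CEMIP, a secreted or membrane-associated protein needed for hyaluronan breakdown in several cell types, was the degrading gene that rose. It lies on chromosome 15 (GRCh38, 80779343 to 80951776, plus strand). Its levels were 52.6 and 40.2 CPM under DMSO, 39.1 and 38.0 with AsiDNA, 119.7 and 90.4 with belinostat and 90.1 and 88.4 with both agents. All belinostat-treated libraries lay above all untreated ones. The rise was 1.18 ± 0.16 against DMSO (adjusted p = 3.48e-05) and 1.21 ± 0.16 for the combination against AsiDNA (6.06e-05), and both held in each alternative fit.

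CEMIP is shown as the member with the largest rise in both comparisons of belinostat-treated with untreated cells. Its stretch of 223 bases ends at the first annotated exon, at chr15:80779120-80779342 on the plus strand, with GC boxes in capitals.
CEMIP: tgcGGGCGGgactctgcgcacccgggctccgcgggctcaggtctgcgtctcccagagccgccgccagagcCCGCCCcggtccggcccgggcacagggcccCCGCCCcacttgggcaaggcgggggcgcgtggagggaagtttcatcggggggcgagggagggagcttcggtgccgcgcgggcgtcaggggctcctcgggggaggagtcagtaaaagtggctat
It held 3 GC boxes and 25 CG pairs. Over the same 250 bases before each RefSeq start, the number of GC boxes was 3 for CEMIP, 2 for UGDH and 1 for HAS1. It was 2 for CD44, for HYAL1 and for each entry of HYAL3, 1 for HAS3 and CEMIP2, and 0 for HYAL2. CEMIP2, the transmembrane relative of CEMIP, gave 24.5 and 22.4 CPM under DMSO, 20.5 and 23.1 with AsiDNA, 23.2 and 18.3 with belinostat and 19.9 and 23.3 with both agents. These libraries overlapped, and the differences of -0.17 ± 0.17 (adjusted p = 0.424) and -0.01 ± 0.18 (0.971) were not called.

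HYAL2 anchors a hyaluronidase to the cell surface. It forms with HYAL1 and HYAL3 a run of 3 genes on the minus strand of chromosome 3 (GRCh38, HYAL3 at 50292831 to 50299468, HYAL1 at 50299889 to 50312381, HYAL2 at 50317790 to 50322906). HYAL2 levels were 24.3 and 20.2 CPM under DMSO, 25.8 and 26.5 with AsiDNA, 16.9 and 12.5 with belinostat and 15.4 and 17.2 with both agents. All belinostat-treated libraries lay below all untreated ones. The log2 fold change was -0.58 ± 0.19 with belinostat (adjusted p = 0.016) and -0.68 ± 0.19 for the combination against AsiDNA (0.00914). The first call was lost without belinostat replicate 2 (adjusted p = 0.079). The second was lost without AsiDNA replicate 1 (0.0512), AsiDNA replicate 2 (0.0601) or combination replicate 1 (0.0758).

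Its neighbours gave less. HYAL3, whose role in hyaluronan breakdown is unclear, measured 6.26 and 6.24 CPM under DMSO, 4.83 and 5.82 with AsiDNA, 4.11 and 6.61 with belinostat and 7.01 and 6.79 with both agents, with differences of -0.25 ± 0.28 (adjusted p = 0.467) and 0.38 ± 0.29 (0.319). HYAL1, the lysosomal enzyme, gave 2 and 5 counts under DMSO, 4 and 2 with AsiDNA, 6 and 5 with belinostat and 2 and 5 with both agents. A change in HYAL1 was not detectable at this depth: the ratio of belinostat to DMSO was 2.20, with a 95% interval for counting error of 0.777 to 6.68. HYAL2 shares 509 exon bases (11.2%) with TUSC2 and HYAL3 shares 248 (12.2%) with NAA80 on the same strand, so their counts are uncertain to that extent.

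Among the other hyaluronidases and lysosomal enzymes, 3 of 5 genes were tested, and HYAL4 and SPAM1 were at 0 in all libraries. HEXA, a hexosaminidase subunit that trims sugar ends, rose by 0.40 ± 0.15 with belinostat (adjusted p = 0.0346). GUSB, the lysosomal glucuronidase, fell by 0.46 ± 0.16 with both agents against AsiDNA alone (adjusted p = 0.0308). The HEXA call was lost without either AsiDNA, either belinostat or either combination library. The GUSB call was lost without any one library of the AsiDNA, belinostat or combination groups.

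CD44, the main hyaluronan receptor, was by far the highest of the set. It lies on chromosome 11 (GRCh38, 35138870 to 35232402, plus strand). Levels were 1871 and 1422 CPM under DMSO, 1571 and 1477 with AsiDNA, 1614 and 1664 with belinostat and 2523 and 2262 with both agents. The combination libraries stood above all 6 others, and the belinostat libraries lay between those of DMSO. The log2 fold change was -0.01 ± 0.15 for belinostat against DMSO (adjusted p = 0.973) and 0.65 ± 0.15 for the combination against AsiDNA (0.00308). The second call was lost without AsiDNA replicate 2 (adjusted p = 0.0605), and without DMSO replicate 2 the first difference was -0.22 and called (0.0312). Gene counts do not separate the CD44 isoforms.

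Other receptors moved in different directions. Of 7 in the list, 4 were tested, 2 rose and 1 fell with belinostat (57.4% of all tested genes called), and 1 rose and 1 fell in the combination against AsiDNA (42.9%). LAYN, layilin, a membrane receptor for hyaluronan, measured 20.3 and 17.3 CPM under DMSO, 17.3 and 14.6 with AsiDNA, 62.8 and 59.3 with belinostat and 60.1 and 66.7 with both agents. It rose by 1.70 ± 0.15 (adjusted p = 8.51e-07) and 1.99 ± 0.16 (6.58e-07). HMMR, a receptor also known as RHAMM that binds the mitotic spindle and is made mainly by dividing cells, measured 174 and 157 CPM under DMSO, 167 and 172 with AsiDNA, 64.5 and 66.2 with belinostat and 62.1 and 64.2 with both agents. It fell by 1.34 ± 0.12 (adjusted p = 9.36e-07) and 1.42 ± 0.12 (1.25e-06). STAB1, a scavenger receptor, passed the filter on low counts only through its belinostat libraries. It gave 1 and 9 counts in DMSO against 18 and 12 with belinostat, a difference of 2.04 ± 0.78. It is 1 of the 2 counted as risen there, and its call is no support for a rise. In the combination against AsiDNA it was not called (1.12 ± 1.15, adjusted p = 0.462). Only 1 receptor rose with belinostat when any one library other than DMSO replicate 2 or combination replicate 2 was left out, and 2 rose in the combination against AsiDNA without either DMSO library.

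Of 17 matrix proteins that bind hyaluronan, 4 were tested, and HABP2, HAPLN1, HAPLN4 and ITIH2 were at 0 in all libraries. VCAN, versican, the large proteoglycan that decorates hyaluronan chains, was the 1 that changed. It measured 613 and 500.0 CPM under DMSO, 656 and 609 with AsiDNA, 327 and 286 with belinostat and 452 and 434 with both agents. It fell by 0.86 ± 0.13 (adjusted p = 0.000117) and 0.51 ± 0.13 (0.00699), the second not called without AsiDNA replicate 1 or combination replicate 2. Without DMSO replicate 1, 1 gene of the list rose in each of the 2 comparisons.

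Of 12 genes for partners, shedding and splicing of CD44, 9 were tested. With belinostat 2 rose and 5 fell, where 57.4% of all genes were called. In the combination against AsiDNA 2 rose and 2 fell, where 42.9% were called, with 4 and 5 falling without DMSO replicate 1 and 2. EZR, ezrin, which links the CD44 tail to actin, fell by 2.30 ± 0.17 (adjusted p = 2.13e-07) and 1.84 ± 0.16 (1.55e-06). MMP14, a membrane protease that can shed CD44, fell by 2.13 ± 0.13 (adjusted p = 6.8e-08) and 1.36 ± 0.13 (3.15e-06). MSN, moesin, another actin linker, fell by 1.28 ± 0.16 with belinostat (adjusted p = 1.87e-05) and differed by -0.31 ± 0.16 in the combination against AsiDNA (0.125). ADAM10, a second sheddase, rose by 0.44 ± 0.14 (adjusted p = 0.0128) and 0.69 ± 0.14 (0.00111). When single libraries other than DMSO replicate 1 were left out, 0 or 1 gene of the list rose with belinostat, and without AsiDNA replicate 1 only 1 rose in the combination.

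The polymerases of chondroitin and heparan sulfate, which draw on the same UDP-glucuronic acid, were called more often higher than lower. Of 11 genes, 10 were tested, of which 5 rose and 1 fell with belinostat and 6 rose and 0 fell in the combination against AsiDNA. Of all tested genes, 29.8% rose and 27.6% fell in the first comparison, and 21.7% rose and 21.2% fell in the second. The list's median log2 fold change was 0.34 and 0.58, against 0.06 and 0.02 over all genes. EXT2, a heparan polymerase subunit, rose by 0.70 ± 0.14 (adjusted p = 0.000805) and 1.04 ± 0.14 (5.66e-05). Its partner EXT1 rose by 0.61 ± 0.12 (adjusted p = 0.000929) and 0.67 ± 0.12 (0.000732), and EXTL2, a related transferase, by 0.80 ± 0.13 (0.000147) and 0.73 ± 0.13 (0.000565). EXTL1, a related transferase of little abundance, gave 4 counts under DMSO, 0 with AsiDNA, 91 with belinostat and 37 with both agents. It passed the filter on low counts only through the belinostat-treated groups, where it is high. As 1 of the 10 tested genes it enters these counts and medians, and it adds no support to them. The number that fell with belinostat ranged from 0 without DMSO replicate 1 to 3 without DMSO replicate 2.

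Counting HAS2, whose loss was known, 1 of the 9 tested hyaluronan genes was called higher (CEMIP) and 3 lower (HAS2, HYAL2, UGDH) with belinostat, where 57.4% of all tested genes were called, 29.8% higher and 27.6% lower. In the combination against AsiDNA 3 were higher (HAS1, CD44, CEMIP) and the same 3 lower, beside 42.9% of all genes. Without AsiDNA replicate 1 only 3 members were called there. The median log2 fold change of the 9 was -0.25 with belinostat, against 0.06 over all tested genes, and -0.01 in the combination against AsiDNA, against 0.02. With 9 genes, and HAS2 known beforehand, nothing is read from either count. Against DMSO, the combination had 3 members called higher and 2 lower, beside 48.1% of all genes. UGDH lay at -0.47 ± 0.18 (adjusted p = 0.0425), a call lost when any one library except DMSO replicate 2 was left out, with a value of -0.12 without DMSO replicate 1. HAS1 lay at 0.45 ± 0.14 (adjusted p = 0.017) and CD44 at 0.54 ± 0.15 (0.00867). Without combination replicate 1 neither was called (0.0761 and 0.0858), and without combination replicate 2 HAS1 was not (0.113). CEMIP lay at 0.94 ± 0.16 (0.00032).

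**Figure D4:**
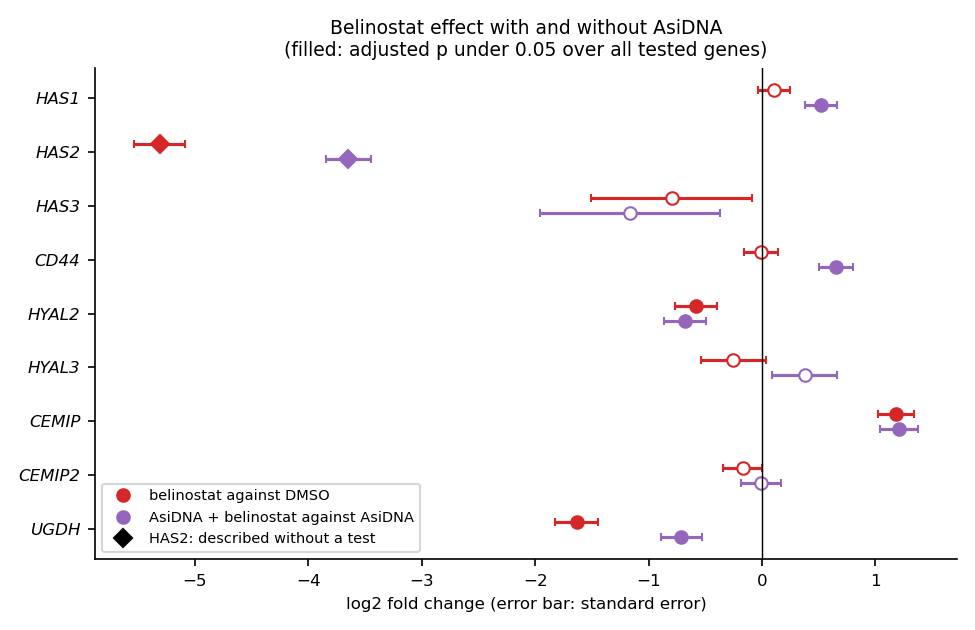
Log2 fold changes with standard errors of the 9 tested hyaluronan genes for belinostat against DMSO (red) and for the combination against AsiDNA (purple), with filled circles where the adjusted p is under 0.05 and diamonds for HAS2, which is given without a test. CEMIP lies at 1.18 and 1.21, and UGDH at -1.63 and -0.71.

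No hyaluronan gene was called by edgeR's test for AsiDNA without belinostat. Of 9 tested members 0 were called, beside 0.0204% of all genes. DESeq2 called 0 members, beside 31 of the 10514 genes that it gave an adjusted p. With edgeR 0 members had an unadjusted p under 0.05, for which no share over all genes is given, so nothing is read from it. The differences with the largest size among the well-counted members were -0.27 ± 0.17 for CEMIP (adjusted p = 0.518), 0.24 ± 0.17 for UGDH (0.569), -0.24 for HYAL3 (0.734) and 0.23 for HYAL2 (0.582). Without DMSO replicate 1, UGDH was called higher in AsiDNA, by 0.59 (adjusted p = 0.000154). The order of levels per kilobase in DMSO was CD44 at 165 ± 31.8 (SD, n = 2), HAS1 at 55.2 ± 9.18, HAS2 at 49.1 ± 9.46, UGDH at 15.6 ± 4.56, CEMIP at 6.09 ± 1.16, HYAL2 at 4.90 ± 0.648, HYAL3 at 3.08 ± 0.0084, CEMIP2 at 2.44 ± 0.156, HAS3 at 0.226 and HYAL1 at 0.110. The libraries of HAS1 overlapped those of HAS2, and those of CEMIP overlapped those of HYAL2.

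The combination was then set against belinostat alone, which differ in long-term AsiDNA. The labels do not say which groups came from MTU87 and which from LTAU87, so a difference between the cultures and AsiDNA itself cannot be told apart. UGDH and CD44 rose. Counting HAS2, 3 of 9 members were past the threshold, all higher, beside 43.4% of all genes. HAS2 went from 4.34 and 6.27 CPM to 13.5 and 19.6, a log2 difference of 1.69 ± 0.25 given without a test because its low belinostat values led to its choice, and still lay below every untreated library. UGDH rose from 20.8 and 19.8 CPM to 41.7 and 49.0, by 1.16 ± 0.19 (adjusted p = 0.000739). CD44 rose from 1614 and 1664 CPM to 2523 and 2262, by 0.55 ± 0.15 (0.0102). HAS1 differed by 0.34 ± 0.14 (0.0647). It was called with RLE factors (0.37, adjusted p = 0.0491), by DESeq2 (0.40, 0.0422) and in the fit of only the groups compared (0.32, 0.00525). Both other filters and the fit without the 10 most abundant genes also called it. Its value was 0.36 without either DMSO library and 0.53 without belinostat replicate 1. Over 18 alternative fits it lay between -0.16 and 0.53, and the sign changed in 1. CEMIP differed by -0.24 ± 0.16 (0.231) and was called in the fit of only the groups compared (-0.26, adjusted p = 0.0428). Its value was -0.23 without DMSO replicate 2. Of the 9 tested CD44 partners, 5 rose and 0 fell, where 22% of all tested genes rose and 21.4% fell. Among the 5, MSN rose by 1.32 ± 0.16 (adjusted p = 0.000271), EZR by 0.84 ± 0.18 (0.00261) and MMP14 by 0.95 ± 0.13 (0.000388). VCAN rose by 0.53 ± 0.13 (0.00685).

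A share of intronic RNA differed between the same groups. Genes annotated as sense-intronic, which lie within introns of other genes, took 0.128% and 0.142% of counts in belinostat and 0.0561% and 0.0440% in the combination. MALAT1 and NEAT1 differed likewise. The sense-intronic share was 0.0570% and 0.113% in DMSO and 0.0556% and 0.0510% in AsiDNA. With that share as a term in the fit, an alternative chosen after seeing the data, the rise of UGDH was 0.31 (adjusted p = 0.725). That of CD44 was 0.15 (0.865). Leaving out HAS2, which carries no test here, no member was called. Of all 14741 tested genes that fit called 85, against 6398 in the fit reported. Beside the group coefficients, the term rests on differences within groups, which were largest in DMSO. In that fit 0 of the CD44 partners, 0 of the matrix proteins and 0 of the UDP-sugar genes were called higher. Only 59 of all tested genes were, against 3237 in the fit reported, so nothing particular to these lists is read from this. With the same term the fall of HYAL2 with belinostat was -0.33 (0.18). The share and the groups cannot be told apart with 2 libraries each.

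Whether belinostat acted differently on AsiDNA cells was tested as an interaction, the log2 effect in AsiDNA cells minus that in DMSO cells. In the fit reported, edgeR called no member, beside 0.00678% of all genes. DESeq2 called 3 (HAS2, UGDH and CD44), beside 704 of the 7523 genes that it gave an adjusted p. With edgeR 3 members had an unadjusted p under 0.05, among them HAS2, whose fall led to its choice. No share over all genes is given for the unadjusted p, so nothing is read from that count. The value of HAS2 was 1.66 ± 0.30, given without a test because it contains the fall for which the gene was chosen. UGDH had 0.92 ± 0.26 (adjusted p = 0.0933) and CD44 0.66 ± 0.21 (0.114), and CEMIP had 0.03 ± 0.23 (0.962). DESeq2 gave UGDH 0.97 (adjusted p = 0.0293) and CD44 0.70 (0.014). With no filter on low counts, edgeR called UGDH (1.03, 0.000933) and CD44 (0.76, 0.000843), beside 1549 of 30848 genes. Without DMSO replicate 1 UGDH had 0.60 and CD44 0.45. Without DMSO replicate 2 they had 1.21 and 0.86. The HAS2 value lay between 1.31 and 1.99 over 17 alternative fits, at 1.48 without DMSO replicate 1 and 1.89 without DMSO replicate 2. In those 2 fits more members were past the threshold than in the fit reported, and so were more of all genes.

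**Figure D5:**
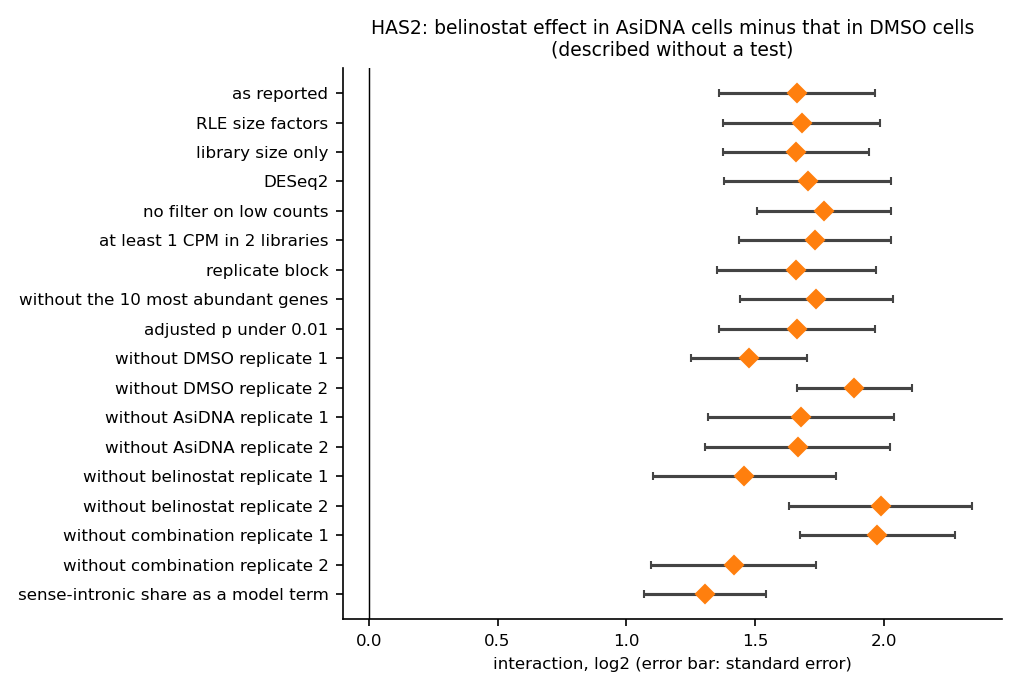
Interaction value of HAS2 on the log2 scale with its standard error, as reported (top) and under 17 alternative fits, given without a test. All values lie above 0, between 1.31 and 1.99.

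The genes whose levels followed HAS2 most closely over the 8 libraries were PRRX1 (Pearson r = 0.999 of log2 CPM), TBX15 (0.998), C9orf40 (0.998), MANEA (0.997) and CENPM (0.997), of 10920 genes compared. These are descriptions over libraries that share 4 groups: 1118 genes had an r above 0.95 with HAS2, since the libraries split by belinostat. PRRX1, a homeobox factor, lay at -4.33 with belinostat and -3.11 in the combination against AsiDNA, on the log2 scale. For CD44 the closest were SMAP1 (0.987), EXOSC5 (0.975) and OCIAD2 (0.971), and 25 genes had an r above 0.95. The log2 difference between the combination and belinostat was 0.51 for SMAP1, 0.61 for EXOSC5 and 0.45 for OCIAD2.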

How the data were processed

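Total RNA of U87 cells was made into stranded libraries after ribosomal RNA depletion, per the labels' protocols. The submitters' processing notes name cutadapt 1.16, STAR 2.7.0, featureCounts 1.6.3 from Subread, and the build GRCh38. The values that the authors deposited are whole-number counts per gene with unequal library totals, taken here as raw counts. Which annotation release and strand setting were used is not given in the sources used here. All 8 columns were mapped to a group by their titles.

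From the counts, edgeR 4.0.16 in R 4.3.3 was run with filterByExpr (14741 genes kept), TMM factors, 1 coefficient per group over all 8 libraries and the quasi-likelihood F-test, with Benjamini-Hochberg adjustment over all tested genes. Standard errors are the absolute log2 fold change over the root of F. A prior count of 2 went into log2 CPM. Exon lengths and positions come from GENCODE v29, where 58611 of the 58884 identifiers were found, and a gene's exon bases are the union over its transcripts, which lowers levels per kilobase of genes with many isoforms. Intervals cover counting error only. The fit was tested on simulated data.

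The members, the gene lists and the tests were chosen with earlier results of these data known. Genes are named by a rule: all members, up to 4 genes of each list with the smallest adjusted p in either belinostat comparison, HMMR, VCAN and both antisense genes throughout, and the 5 and 3 genes most like HAS2 and CD44. Alternatives were RLE factors, library size only, DESeq2 1.42.0, other filters, a replicate block, a stricter threshold, the groups compared only, leaving out each library and, added later, the sense-intronic share. Replicates were not duplicates: chi-square per degree of freedom lay between 1.91 and 27.3. The result for 1 gene that the rule names is not reported here.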

Additional observations from a re-analysis of the deposited data

Results flagged for a closer look

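HEXA and CHSY1 stood out because both libraries moved one way with belinostat in control cells and both moved the other way in AsiDNA cells. HEXA measured 50.7 and 69.6 CPM under DMSO, 54.5 and 56.3 with AsiDNA, 77.0 and 81.5 with belinostat and 53.7 and 51.7 with both agents, an interaction of -0.47 ± 0.21 that was not called (adjusted p = 0.221). CHSY1, a chondroitin polymerase, measured 167 and 126 CPM under DMSO, 156 and 153 with AsiDNA, 121 and 121 with belinostat and 179.9 and 181 with both agents, an interaction of 0.50 ± 0.19 that was not called (adjusted p = 0.166).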

How the results depend on the processing

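Of 14 results past the threshold for hyaluronan genes other than HAS2, 4 stayed past it in every alternative fit, and none changed sign. Counts of members called include HAS2. The number of members called for belinostat against DMSO ranged from 3 to 5 as single libraries were left out, against 4. For the combination against AsiDNA it ranged from 3 to 6, and for AsiDNA against DMSO from 0 to 1. For the combination against belinostat it ranged from 3 to 5, with 5 in the fit of only the groups compared and 1 with the sense-intronic share. For the combination against DMSO it ranged from 2 to 6, with 3 in the fit of only the groups compared and 3 at an adjusted p under 0.01. For the interaction it ranged from 0 to 4, with 1 on library size only, 3 by DESeq2, 3 with no filter, 1 with at least 1 CPM in 2 libraries, 1 without the 10 most abundant genes and 1 with the sense-intronic share. The cause was not tested.

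Replicate numbers did not pair the libraries: deviations of same-numbered libraries correlated between -0.196 and 0.139 over the 6 pairs of groups. With a replicate block no count of members called changed by over 1.5 times, and the interaction of HAS2 was 1.66. For all genes, the AsiDNA comparison had 3 called genes, 4955 without DMSO replicate 1, 62 without DMSO replicate 2, 31 by DESeq2 and 5 with the block. The interaction had 1, against 1020, 5358, 704 and 19. The combination against belinostat had 6398, against 85 with the sense-intronic share. On library size only, the median over all genes was -0.20 instead of -0.01 for the combination against DMSO. HAS3 and HYAL1 were limited by depth.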
